A study of Mus musculus with 27 samples.

Results

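Interferon response genes were followed through 9 groups of mouse HSPCs (the cell type given by the labels). A list of 45 named genes defined the set, and 44 of them were matched by symbol among the 24418 entries of the deposited expression table. All 44 passed the filter on low values and were tested together with the rest of the 13350 genes that passed. The rule used gene symbols only, and no measured value. The members and the other gene lists were, however, chosen with earlier results of these data known. Their counts beside the share of all genes are therefore descriptions. The 1 member not matched, Rnf213, was not analysed here. The set holds 3 sensors of viral RNA, 4 transcription factors, 3 genes of ISG15 conjugation and feedback, the IFIT, IFITM, OAS, Mx, guanylate-binding protein and immunity-related GTPase families, 5 IFI genes and a group of single effectors.

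The cells came from C57BL/6 mice, and bulk RNA sequencing was done on 27 libraries, 3 for each group. The E12.5 groups are labelled PL and FL. They are followed by E16.5 FL, then by Perinatal BM and by BM at 1, 3, 4, 6 and 8 weeks (1w to 8w BM). All groups share the strain and the cell type label. In E12.5 PL most HSPC markers were lower than in E12.5 FL and trophoblast markers were high, as given below. The labels name no genotype, treatment or sex, nor whether the 3 libraries of a group came from separate animals. The spread between these libraries may therefore be technical. P-values rest on 1 estimate of that spread per gene, shared by all 27 libraries and not taken only from the groups compared.

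Interferons are secreted proteins that cells release on sensing viral nucleic acid. They bind cell surface receptors, and Janus kinases then activate transcription factors. Type I and III interferon act through the complex ISGF3, which contains STAT2 and IRF9 and binds the interferon-stimulated response element (ISRE). Type II interferon acts through the gamma-activated site (GAS). Genes controlled through these elements encode antiviral effectors as well as more of the pathway itself. In hematopoietic stem and progenitor cells such genes are expressed without infection, and interferon can drive quiescent stem cells into cycle.

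Promoter sequences show what many members have in common that the choice by name did not use. RefSeq promoters of the GRCm38.p6 build, each from 250 bases before to 50 bases after a start site, were found for 34 members. The ISRE core (GAAA, any 2 bases, then GAAA), searched on both strands, was present in 20 of the 34 members (58.8%), against 3.99% of 27025 genes and 3.44% of 32851 promoters. The GAS core TTCNNNGAA was present in 13 of the 34 members (38.2%), against 9.55% of genes and 8.3% of promoters. Both were found in 7 members, Ifitm3, Oas1a, Irgm2, Igtp, Gbp7, Bst2 and Eif2ak2. A match describes the letters and shows no binding. The following windows were chosen for the members whose values are given below, from different families, and all lie upstream of the start site. Capitals mark the ISRE core, overlapping copies included, and each sequence is written 5′ to 3′ on the strand of the gene.

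Isg15, chr4:156200872-156200911, minus strand: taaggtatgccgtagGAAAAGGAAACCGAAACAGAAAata

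Rsad2, chr12:26456548-26456587, minus strand: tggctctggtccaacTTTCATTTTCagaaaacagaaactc

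Bst2, chr8:71537578-71537617, minus strand: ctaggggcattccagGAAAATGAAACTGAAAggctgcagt

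Oas3, chr5:120777710-120777749, minus strand: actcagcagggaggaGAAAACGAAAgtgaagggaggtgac

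Irgm1, chr11:48871426-48871465, minus strand: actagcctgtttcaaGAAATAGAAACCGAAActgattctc

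Irgm2, chr11:58214898-58214937, plus strand: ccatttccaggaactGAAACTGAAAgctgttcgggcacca

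Igtp, chr11:58199507-58199546, plus strand: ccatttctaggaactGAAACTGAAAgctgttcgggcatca

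Gbp3, chr3:142559984-142560023, plus strand: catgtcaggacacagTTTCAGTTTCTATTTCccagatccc

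Isg15 carried 3 overlapping ISRE cores, and Bst2, Irgm1 and Gbp3 carried 2 each. In Rsad2 and Gbp3 the core lay on the strand opposite to the gene and is read as TTTC repeats. Irgm2 and Igtp, neighbouring genes that start within 23 kb, hold nearly the same letters around their core. Irf1 had no ISRE core in its window and 1 GAS core, in capitals in the next line.

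Irf1, chr11:53769909-53769947, plus strand: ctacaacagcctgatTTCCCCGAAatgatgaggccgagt

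No promoter entry was found for Dhx58, Usp18, Oas2, Iigp1, Mx1, Mx2, Ifi204, Ifi27, Parp14 and Rtp4. Many members are neighbours in the genome. In GRCm38.p6, Ifitm2, Ifitm1, Ifitm3 and Irf7 lie within chr7:140954837-141266499, and Ifit2, Ifit3 and Ifit1 within chr19:34550550-34650009. Gbp7, Gbp3 and Gbp2 lie within chr3:142530336-142638008, and Oas2, Oas3 and Oas1a within chr5:120730333-120907544. Levels are given as FPKM (fragments per kilobase of transcript, scaled to the size of the library). Differences are differences of log2(FPKM + 1), a scale on which changes of genes near 0 FPKM come out too small.

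Several features of the libraries touch the results. The number of genes above 0 was 14241 to 16964 per library, and counts were not used here, so the absolute depth is unknown; relative depth, read from the steps between the lowest values, was 1.42 to 1.57 times that of the median library in E12.5 FL and 0.733 to 1.2 times in the others. Perinatal BM3 stood apart from its 2 group mates. It was the highest of the 3 for 40 of the 44 members, against 37.9% of all genes, and values with and without it are given below. Smaller leanings were seen in 3w BM3, highest of its group for 33 members (36.8% of all genes), E16.5 FL1, highest for 30 (36.7%), 4w BM3, highest for 30, 4w BM2, lowest for 33, and 3w BM2, lowest for 31. The HSPC label was checked against 12 HSPC markers. In E12.5 PL, 10 of the 12 were lower than in E12.5 FL (Ptprc 7.91 against 65.3 FPKM), while the summed trophoblast markers reached 3205 to 3448 FPKM against 18.4 to 20.3. Procr went the other way, with 80.7, 175 and 189 FPKM in E12.5 PL and 3.41, 4.59 and 4.43 in E12.5 FL. The Ly6a libraries of these groups overlapped. In bulk RNA, a smaller number of cells of a type and less RNA per cell cannot be told apart.

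No interferon gene reached the filter in any group, although their targets were expressed. All 21 type I, II and III interferon genes on the list were matched, none passed the filter, 10 were listed at 0 in every library, and the highest value in any library was 0.88 FPKM. The chains of the type I and type II receptors were expressed throughout, while the type III chain Ifnlr1 was above 0 in 9 of the 27 libraries and reached at most 0.422 FPKM. Ifnar1, which with Ifnar2 forms the type I receptor, had a mean of 14.5 FPKM in E12.5 FL and 17.2 in 8w BM (limma adjusted p = 0.0572). Ifnar2 was higher in 8w BM (61.5 against 43.2 FPKM, log2 difference 0.50, limma adjusted p = 0.000165). Of the type II receptor chains, Ifngr1 had means of 53.7 and 60.8 FPKM (limma adjusted p = 0.279) and Ifngr2 was lower in 8w BM (12.7 against 18.03 FPKM, log2 difference -0.47, limma adjusted p = 0.00617).

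The members' median level was lowest in E12.5 FL, higher in E16.5 FL and Perinatal BM, and highest from 3 weeks on. The median of the member means was 3.49 FPKM in E12.5 FL, 6.88 in E16.5 FL, 10.7 in Perinatal BM, 7.86 in 1w BM, 13.5 in 3w BM, 13.8 in 4w BM, 11.2 in 6w BM and 13.5 in 8w BM. In E12.5 FL, 10 members had a mean below 1 FPKM (Ifit1, Ifit3, Oas3, Oasl1, Iigp1, Mx1, Mx2, Ifi204, Ifi44 and Rsad2). Among the 8 FL and BM groups, E12.5 FL had the lowest mean for 39 of the 44 members. The highest mean was in 8w BM for 16 members, in 4w BM for 9, in 3w BM for 8, in 6w BM for 7, in Perinatal BM for 3 (Irf7, Mx1 and Ifitm1) and in E12.5 FL for Samhd1. Samhd1, whose product depletes the nucleotide pool viruses need, was the only member with its highest mean there. For the 3 members highest in Perinatal BM, Perinatal BM3 held the highest value of the group. Irf7 had 31.4 FPKM in it against 12.1 and 11.7, Mx1 5.67 against 2.06 and 2.19, and Ifitm1 477 against 364 and 288.

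**Figure D1:**
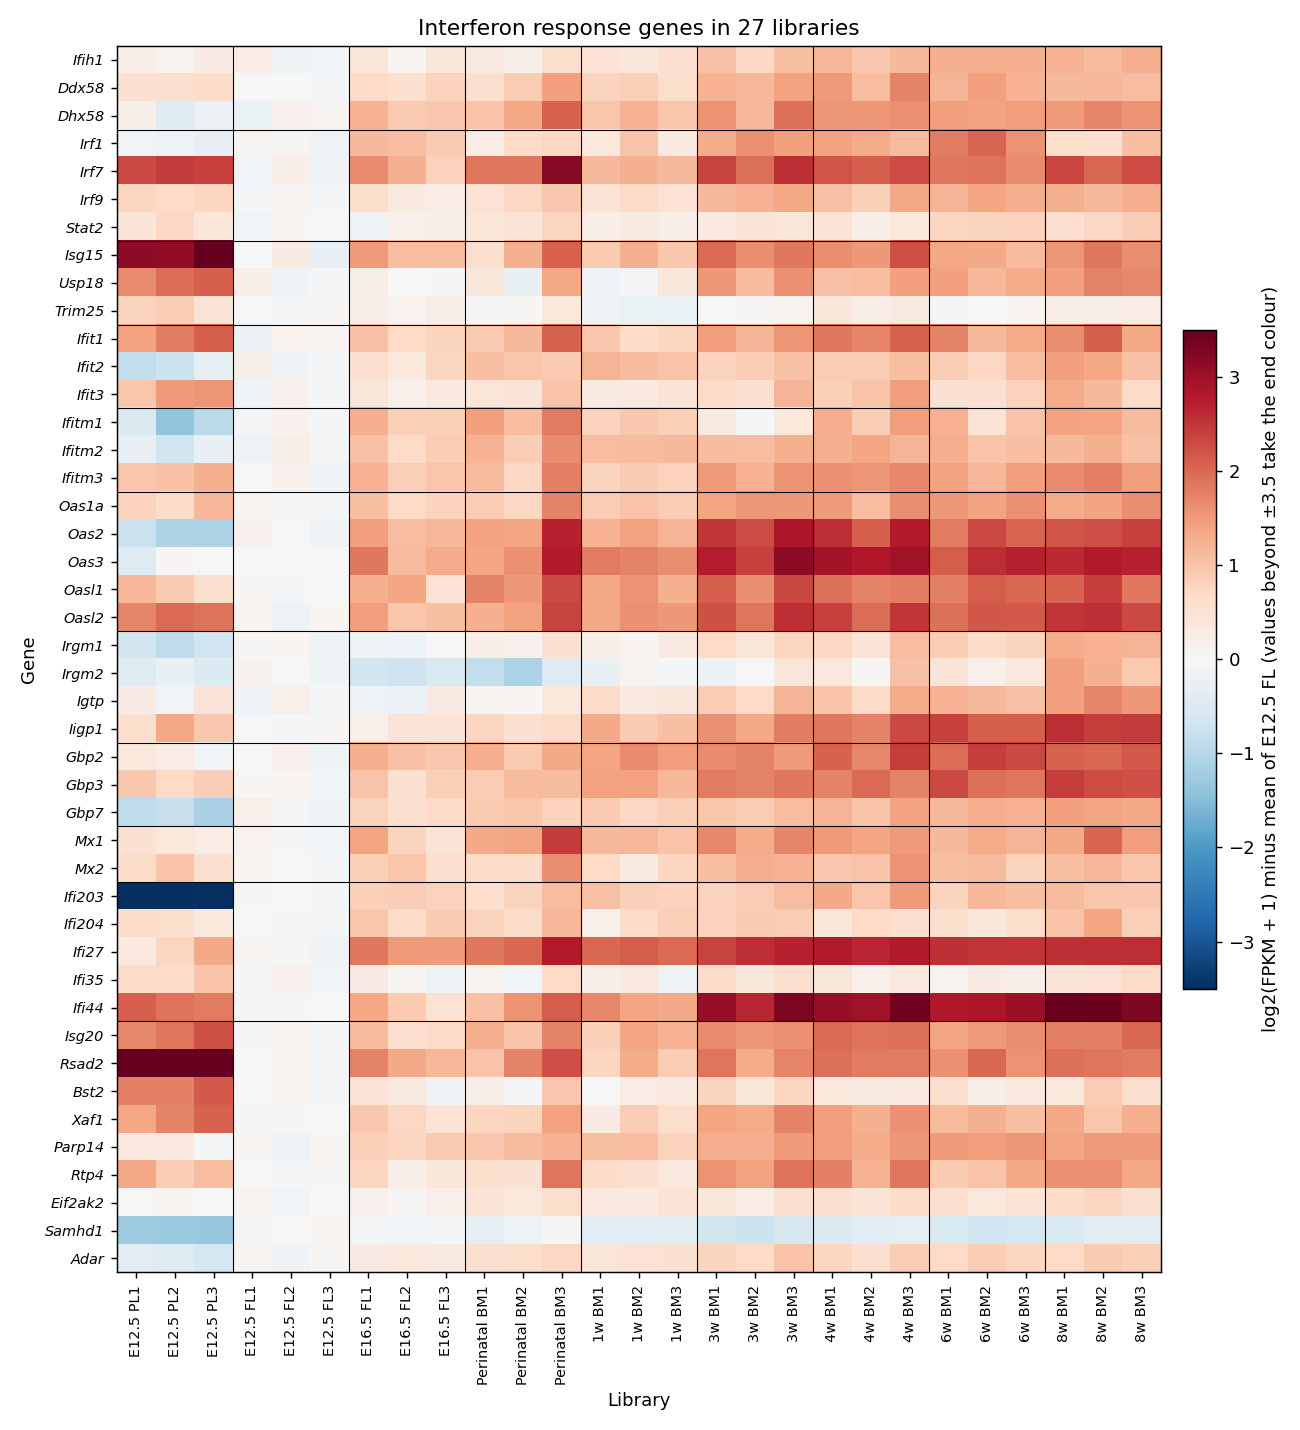
Heat map of 44 interferon response genes (vertical axis, ordered by family) in 27 libraries (horizontal axis, ordered by group). Colour gives log2(FPKM + 1) minus the mean of the 3 E12.5 FL libraries, with the colour scale ending at 3.5 on either side. Most members are above the E12.5 FL level in every later group, the third Perinatal BM library is higher than its 2 group mates, and Samhd1 runs the other way.

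Between E12.5 and E16.5 FL, 30 of the 44 members rose and 1 fell, where 19% of all genes were called higher and 15.6% lower (limma, Benjamini-Hochberg adjusted p under 0.05). The median log2 difference of the members was 0.80, against 0.01 over all genes, and 40 of the 44 differences were positive. All 5 OAS genes rose (median 1.16), a family named for synthetases that start RNA decay through RNase L, together with all 3 IFITM genes (median 0.98), which encode membrane proteins that block viral entry, and all 3 guanylate-binding proteins (median 0.79). None of the 4 immunity-related GTPases rose by limma at an adjusted p under 0.05, and 1 had a higher value at an unadjusted p under 0.05 (Iigp1). Iigp1 was called higher with a pseudocount of 0.1, in a fit of only the 6 libraries compared, and without the E12.5 PL libraries.

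Ifi27, a mitochondrial protein gene induced by interferon, had 12.8, 12.46 and 11.1 FPKM in E12.5 FL and 45.8, 36.1 and 36.0 in E16.5 FL. All 3 later libraries lay above all earlier ones (log2 difference 1.61 ± 0.19 SE, limma adjusted p = 1.46e-06). Irf7, the factor that amplifies type I interferon production, had 2.34, 3.19 and 2.2 FPKM against 10.3, 7.44 and 5.25. The later libraries were spread widely but did not overlap the earlier ones (1.24 ± 0.25, adjusted p = 0.000595). Oas2 had 1.83, 1.52 and 1.38 FPKM against 5.93, 4.45 and 4.77 (1.23 ± 0.25, adjusted p = 0.000589). The ubiquitin-like modifier Isg15, whose promoter holds 3 overlapping ISRE cores, had 3.44, 4.4 and 2.59 FPKM against 11.3, 8.4 and 8.36 (1.22 ± 0.25, adjusted p = 0.000643). Both genes were higher in every E16.5 library. Oasl2, an OAS-like gene, rose from 2.76, 2.11 and 2.63 FPKM to 8.54, 5.81 and 6.25 (1.16 ± 0.22, adjusted p = 0.00034).

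The member that fell was Irgm2, a GTPase that controls other immunity-related GTPases at pathogen vacuoles and lysosomes. It had 2.89, 2.53 and 2.2 FPKM in E12.5 FL and 1.23, 1.14 and 1.45 in E16.5 FL, with no overlap (-0.64 ± 0.20, limma adjusted p = 0.0191), and the call was lost without E12.5 FL1, E16.5 FL1 or E16.5 FL2. Its neighbour Igtp had means of 4.12 and 4.1 FPKM (adjusted p = 0.951), and Irgm1, elsewhere on the same chromosome, 11 and 10.1 (adjusted p = 0.557). Among 49 tested interferon-induced genes outside the set, 24 rose and 0 fell at this step in limma (28 and 0 at an unadjusted p under 0.05), led by Lgals3bp, a secreted galectin-binding protein (9.68 to 28.1 FPKM), and by Sp100, a component of nuclear bodies (2.59 to 9.57 FPKM). Markers of other cells moved with the step. All 8 tested B cell markers were higher (summed 22.3 to 26.6 FPKM in E12.5 FL and 75.6 to 231 in E16.5 FL). The macrophage and monocyte markers were higher for 8 of 14 (86.2 to 109 and 166 to 202 FPKM), with C1qa at 0.409 and 2.15. Neutrophil markers were higher for 6 of 8 and lower for 1 (summed 633 to 722 and 731 to 1536 FPKM), with S100a8 at means of 1.62 and 243 FPKM. Mast cell and basophil markers were higher for 6 of 10 and lower for 1 (32 to 39.5 and 29.3 to 79.1 FPKM). Their part in the members' rise was not tested.

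**Figure D2:**
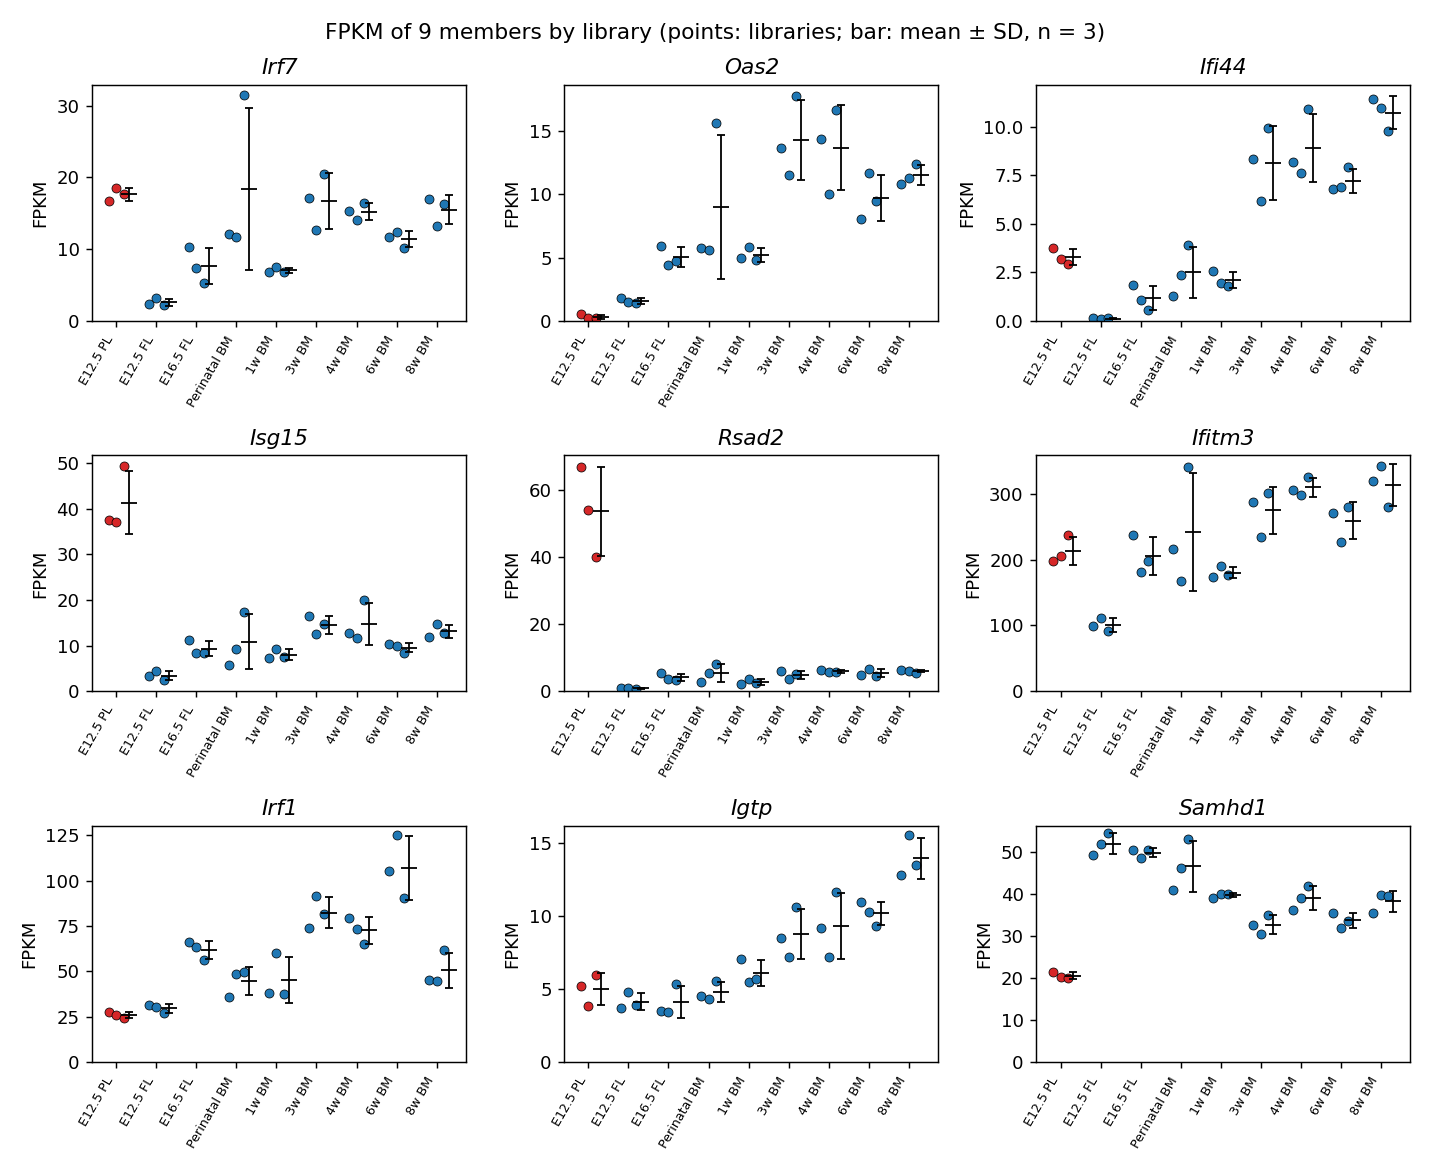
FPKM (vertical axis) of 9 interferon response genes in 9 groups (horizontal axis), with points for libraries and the mean and SD of 3 libraries for each group; E12.5 PL is drawn in red. Most panels rise from E12.5 FL to E16.5 FL and again from 1w to 3w BM, Irf1 falls from 6w to 8w BM, and Samhd1 is highest in E12.5 FL.

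From E16.5 FL to Perinatal BM, 12 members rose and 1 fell, against 14.2% of all genes called higher and 14.2% called lower. The median member difference was 0.30, against 0 over all genes, and 39 of the 44 differences were positive. Without Perinatal BM3, 4 members rose (Irf7, Stat2, Ifit2 and Eif2ak2) and the median was 0.14. Without E16.5 FL2 or E16.5 FL3, 6 members rose. The transcription factors Irf7, Irf9 and Stat2 were among the 12, and Irf1, itself a target of type II interferon, was the member that fell. All 10 mast cell and basophil markers were higher in Perinatal BM (summed 29.3 to 79.1 FPKM in E16.5 FL and 1582 to 3954 in Perinatal BM), all 8 tested B cell markers were lower (75.6 to 231 and 24.9 to 74.7 FPKM), and 6 of 14 macrophage and monocyte markers were lower and 2 higher (166 to 202 and 140 to 148 FPKM). Their part in the members' changes was not tested.

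Irf7 had 10.3, 7.44 and 5.25 FPKM in E16.5 FL and 12.1, 11.7 and 31.4 in Perinatal BM (1.06 ± 0.25, limma adjusted p = 0.00269), the highest value being that of Perinatal BM3. Stat2, a subunit of ISGF3, was more even, with 5.23, 6.69 and 6.96 FPKM against 8.19, 8.48 and 10.6 (0.47 ± 0.11, adjusted p = 0.00254). Neither gene overlapped between the groups, and both stayed called without any 1 library. In a fit of only the 6 libraries compared, neither was called. Oasl1, which represses Irf7 translation, had 2.9, 3.28 and 1.31 FPKM against 4.48, 3.65 and 7.11 (0.81 ± 0.23, adjusted p = 0.00955), a call lost without Perinatal BM3 or E16.5 FL3. Ifi27 had 45.8, 36.1 and 36.0 FPKM against 46.1, 52.1 and 89.5 (0.61 ± 0.19, adjusted p = 0.0196), and Isg20, an exonuclease that degrades single-stranded RNA, had 7.37, 4.86 and 5.15 against 8.23, 6.69 and 11.9 (0.53 ± 0.17, adjusted p = 0.019). Ifi27 did not overlap and Isg20 did, and both calls were lost without Perinatal BM3, E16.5 FL2 or E16.5 FL3. Irf1 had 66.3, 63.2 and 56.5 FPKM against 35.6, 48.7 and 49.4, with no overlap (-0.48 ± 0.16, adjusted p = 0.0297), a call lost without E16.5 FL1, E16.5 FL2 or Perinatal BM1.

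Perinatal BM3 was above the mean of the other 2 Perinatal libraries by a median of 0.61 (log2) over the members, against 0.01 over all genes, with a range from -0.14 to 1.33. On this log2(FPKM + 1) scale the excess was largest for Irf7 (1.33), Rtp4 (1.32), Oas2 (1.30), Usp18 (1.29), Oas3 (1.29) and Isg15 (1.13). Rtp4 encodes a receptor-transport protein and Usp18 the protease that removes ISG15 and damps the type I receptor. Oas3 shows the size, with 3.27 and 3.9 FPKM in the first pair of libraries and 10.1 in BM3, while Gbp7 and Ifit2 were lower in BM3 (12.2 FPKM for Gbp7 against 13.3 and 13.9). Summed neutrophil markers were 2316, 2346 and 1013 FPKM in libraries 1, 2 and 3. B cell markers were 31.4, 24.9 and 74.7, dendritic cell markers 27, 20.1 and 42.5, mast cell and basophil markers 3308, 1582 and 3954, and macrophage markers 148, 145 and 140. Their part in the excess was not tested.

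**Figure D3:**
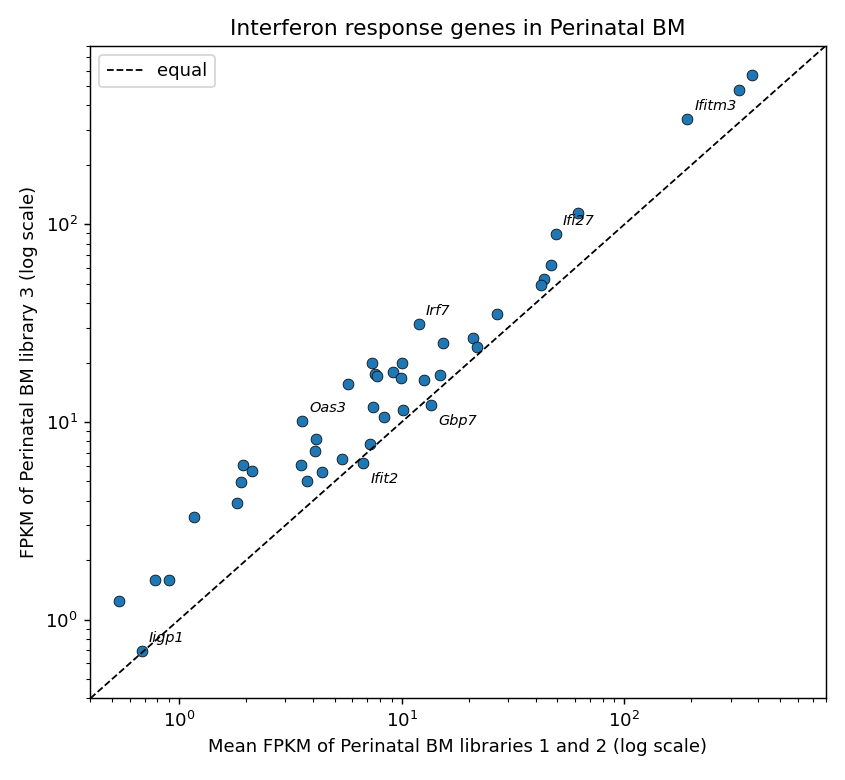
FPKM of 44 interferon response genes in the third Perinatal BM library (vertical axis, log scale) against the mean of the first pair (horizontal axis, log scale), 1 point per gene; the dashed line marks equal values. Most points lie above the line, with the largest ratio for Usp18 (3.11 times the mean of the first pair) and 2.64 times for Irf7.

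From Perinatal to 1w BM, 1 member rose and 3 fell, against 8.6% of all genes called higher and 8.97% lower, with a median member difference of -0.19 (all genes 0.00). Irf7 fell from 12.1, 11.7 and 31.4 FPKM to 6.86, 7.46 and 6.85 (-1.12 ± 0.25, limma adjusted p = 0.00335). It did not overlap between the groups and was the 1 member still lower without Perinatal BM3. In a fit of only the 6 libraries compared, it was not called. Rsad2, encoding the antiviral enzyme viperin, had 2.81, 5.39 and 8.24 FPKM against 2.25, 3.7 and 2.55, with overlap (-0.68 ± 0.24, adjusted p = 0.0491). Trim25, a ligase that activates the RNA sensor RIG-I, had 25.8, 27.8 and 35.2 FPKM against 24.2, 23.1 and 22.9 (-0.31 ± 0.09, adjusted p = 0.0233). Irgm2 rose from 0.926, 0.627 and 1.6 FPKM to 1.94, 2.81 and 2.37, with no overlap (adjusted p = 0.0158). The count of members that fell was 7 without Perinatal BM1, 6 without Perinatal BM2 and 1 without Perinatal BM3 or 1w BM3, and Irgm2 lost its call without Perinatal BM2 or 1w BM2. Rsad2 lost its call without Perinatal BM2, Perinatal BM3, 1w BM1 or 1w BM3 and with no filter on low values, and Trim25 without Perinatal BM3, 1w BM2 or 1w BM3. Mast cell and basophil markers were lower at 1 week for 8 of 10 (summed 1582 to 3954 FPKM in Perinatal BM and 127 to 234 in 1w BM), and summed neutrophil markers were 1013 to 2346 and 2842 to 4376 FPKM, with 1 of 8 called higher (Elane). Their part in the members' changes was not tested.

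Between 1 and 3 weeks in BM, 18 members rose and 1 fell, against 5.69% of all genes called higher and 4.76% lower. The median member difference was 0.46, against -0.00 over all genes, and 41 of the 44 were positive. The RNA sensors Ifih1 and Ddx58 (encoding MDA5 and RIG-I) rose, as did the factors Irf1, Irf7 and Irf9 and 3 of the 5 OAS genes. Of the IFITM genes Ifitm3 rose, while Ifitm1 had a mean of 247 FPKM at 1 week and 159 at 3 weeks (adjusted p = 0.0549). The count of members that rose was 10 without 1w BM1 or 3w BM1 and 8 without 3w BM3. Irf1, Irf7, Irf9, Usp18, Oas2, Ifi44, Xaf1 and Rtp4 stayed called without any 1 library. Of these, Irf1 was not called in a fit of only the 6 libraries compared.

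Ifi44, a cytoplasmic protein gene that responds to type I interferon, had 2.58, 1.93 and 1.8 FPKM at 1 week and 8.35, 6.16 and 9.97 at 3 weeks (1.55 ± 0.22, limma adjusted p = 6.55e-05). Usp18 had 1.54, 1.64 and 2.61 FPKM against 6.91, 4.89 and 7.27 (1.33 ± 0.25, adjusted p = 0.00155). For both genes the lowest 3-week library lay well above the highest 1-week library. Oas2 had 4.95, 5.85 and 4.83 FPKM against 13.6, 11.6 and 17.8 (1.29 ± 0.25, adjusted p = 0.00161), and Irf7 had 6.86, 7.46 and 6.85 against 17.2, 12.6 and 20.4 (1.12 ± 0.25, adjusted p = 0.00576). Rtp4 had 7.83, 7.41 and 6.14 FPKM against 15.9, 14.0 and 19.9 (1.11 ± 0.25, adjusted p = 0.00595). None of the 5 genes overlapped between the groups, and 3w BM3 was the highest library for each. Samhd1 fell from 39.1, 40 and 40.1 FPKM to 32.7, 30.5 and 34.9, with no overlap (-0.28 ± 0.08, adjusted p = 0.0254), a call lost without any 1 library except 3w BM3.

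The step from E12.5 to E16.5 FL and the step from 1 to 3 weeks share no library. They had 14 risen members in common, 46.7% of the 30 that rose in the fetal step and 77.8% of the 18 that rose after birth. Of all 44 members, 30 rose in the fetal step and 18 in the later one. Much of the overlap follows from those counts, and it is not read as a link between the steps. Ifih1, Usp18, Irgm1 and Rtp4 were called in the second step and not in the first, and whether their changes differed between the steps was not tested. Outside the set, 12 of the 49 other interferon-induced genes rose between 1 and 3 weeks and 0 fell in limma (18 and 2 at an unadjusted p under 0.05), among them Ly6e (230 to 355 FPKM), whose product restricts coronavirus entry, and Sp100 (18 to 27.2 FPKM). Macrophage and monocyte markers were higher for 7 of 14 (summed 136 to 157 FPKM at 1 week and 173 to 202 at 3 weeks; C1qa 1.29 and 7.33), and neutrophil markers lower for 5 of 8 (2842 to 4376 and 2341 to 2532 FPKM). Mast cell and basophil markers were lower for 5 of 10 (127 to 234 and 95.8 to 101 FPKM), B cell markers higher for 3 of 8 (28.5 to 33.8 and 38.9 to 52.2 FPKM), and T and NK cell markers, mostly Lat and Nkg7, summed to 117 to 147 and 130 to 151 FPKM. Their part in the members' rise was not tested.

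Between 3 and 4 weeks 2 rose and 0 fell, against 4.72% of all genes higher and 4.56% lower. At an unadjusted p under 0.05 in limma, 7 members were higher and 0 lower. The share of all genes at an unadjusted p was not computed for any step. Ifitm1 rose from 169, 131 and 176 FPKM to 326, 248 and 376, with no overlap (0.98 ± 0.21, adjusted p = 0.00671). Samhd1 rose from 32.7, 30.5 and 34.9 FPKM to 36.2, 39.0 and 41.9 (0.25 ± 0.08, adjusted p = 0.0464), a call that was lost without any 1 library except 3w BM3. Between 4 and 6 weeks 1 rose and 0 fell, against 2.59% and 1.35% of all genes, and 2 were higher and 7 lower at an unadjusted p under 0.05. Stat2 had 8.47, 6.93 and 7.84 FPKM at 4 weeks and 10.5, 10.8 and 11.1 at 6 weeks, with no overlap (0.43 ± 0.11, adjusted p = 0.0276), a call that held only without 4w BM1.

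Between 6 and 8 weeks 3 members rose and 1 fell, against 2.97% of all genes higher and 5.21% lower, and 2 of the 3 were immunity-related GTPases. At an unadjusted p under 0.05 in limma, 11 members were higher and 1 lower, a threshold at which the share of all genes was not computed. Irgm2 had 3.78, 2.97 and 3.6 FPKM at 6 weeks and 8.54, 7.35 and 5.6 at 8 weeks (0.86 ± 0.20, limma adjusted p = 0.00911). Irgm1, which acts in autophagy, had 21.0, 17.8 and 19.4 FPKM against 28.2, 26.6 and 26.5 (0.46 ± 0.13, adjusted p = 0.0225). Neither overlapped; Irgm2 lost its call without 6w BM2 or 8w BM1, and Irgm1 without 6w BM2, 6w BM3, 8w BM1 or 8w BM2. Ifi204, a DNA sensor gene of the p200 family, was the third, with means of 0.691 and 1.47 FPKM (adjusted p = 0.041), and was called only with 8w BM3 left out or with all libraries. Irf1 fell from 105, 125 and 90.4 FPKM to 45.3, 44.8 and 61.8 with no overlap (-1.07 ± 0.16, adjusted p = 0.000143), and stayed called without any 1 library. It was not called in a fit of only the 6 libraries compared. Atf3, a stress-induced repressor on the list of negative regulators, fell in the same step (104 to 23.8 FPKM, adjusted p = 0.00687). Macrophage and monocyte markers were higher at 8 weeks for 10 of 14 (summed 167 to 228 and 269 to 382 FPKM; C1qa 5.62 and 21.8), and their part in the GTPase rise was not tested.

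**Figure D4:**
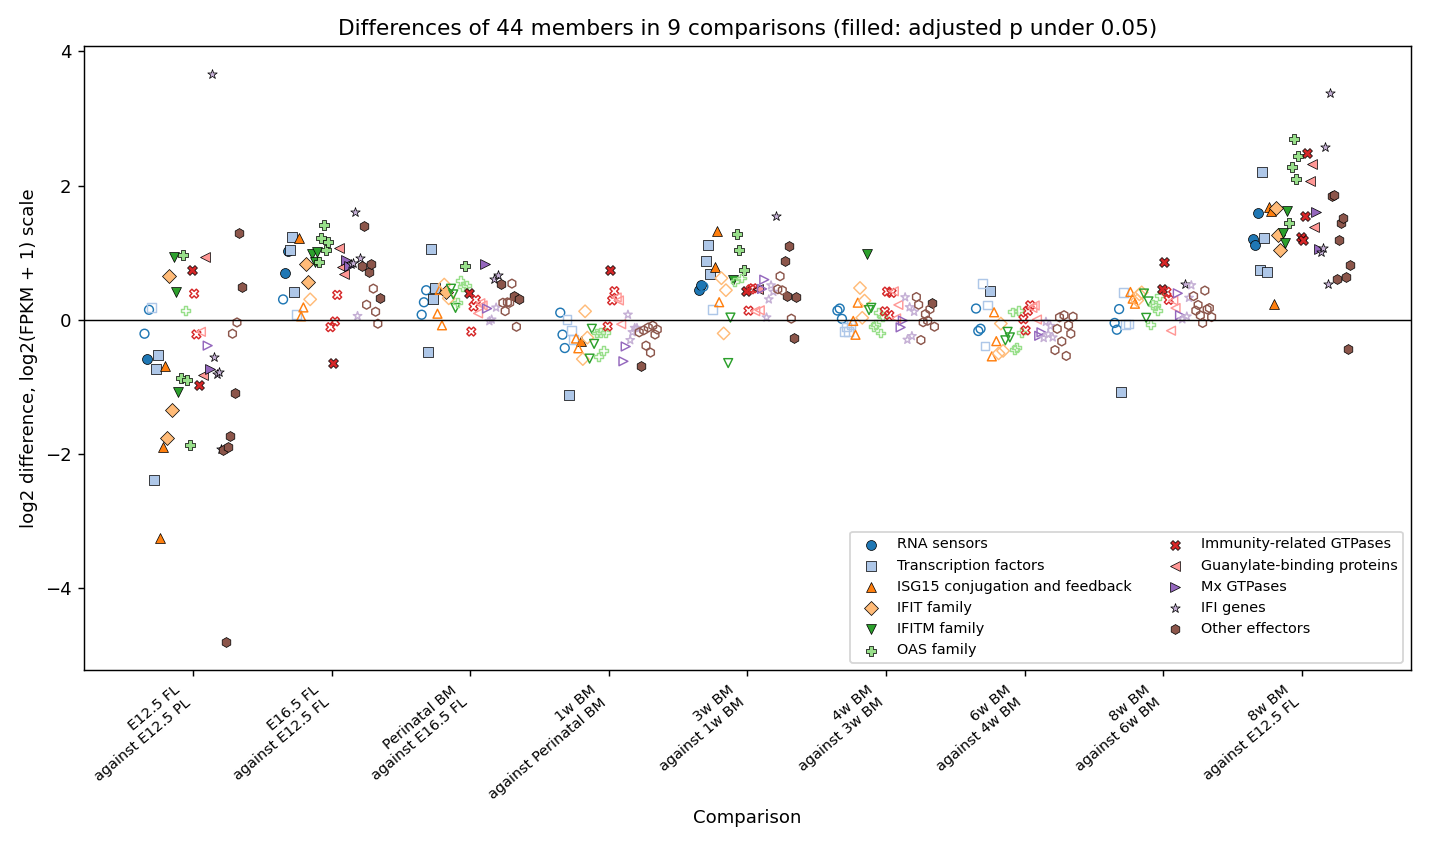
Log2 differences (vertical axis, from log2(FPKM + 1)) of 44 interferon response genes in 9 comparisons (horizontal axis). Marker shapes give families, and filled markers an adjusted p under 0.05 in limma. Points lie mostly above 0 for E16.5 FL against E12.5 FL, 3w against 1w BM and 8w BM against E12.5 FL. They lie on both sides of 0 for E12.5 FL against E12.5 PL.

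Across the whole course from E12.5 FL to 8w BM, 43 of the 44 members were higher and Samhd1 was lower, against 26.5% of all genes higher and 24.3% lower. The median member difference was 1.41, against 0.01 over all genes. The 8w BM libraries overlapped those of E12.5 FL for no member. The share of all genes without overlap was not computed, and 3 against 3 libraries fail to overlap by chance in 10% of cases. Ifi44 rose from 0.142, 0.0879 and 0.132 FPKM to 11.4, 11 and 9.8 (3.39 ± 0.22, limma adjusted p = 1.66e-11). Oas3, which encodes the largest of the synthetases, rose from 0.628, 0.644 and 0.604 FPKM to 8.89, 10.1 and 9.47 (2.69 ± 0.26, adjusted p = 1.11e-08). Ifi27 reached 76.7, 77.1 and 77.6 FPKM in 8w BM (2.58 ± 0.19, adjusted p = 1.85e-10). Oasl2 reached 18.7, 19.4 and 16.2 FPKM (2.45 ± 0.22, adjusted p = 3.93e-09). Gbp3, a GTPase that assembles on pathogen membranes and has 2 ISRE cores in its promoter, rose from 3.16, 3.26 and 2.76 FPKM to 20.7, 18.9 and 18.4 (2.32 ± 0.12, adjusted p = 5.59e-13). Samhd1 went from 49.4, 51.9 and 54.4 FPKM to 35.4, 39.7 and 39.5 (-0.43 ± 0.08, adjusted p = 6.84e-05). The smallest rise was that of Trim25 (27.2 to 32.2 FPKM, 0.24 ± 0.09, adjusted p = 0.0388), and it lost its call when any of the 6 libraries was left out. Summed macrophage and monocyte markers were 86.2 to 109 FPKM in E12.5 FL and 269 to 382 in 8w BM. Neutrophil markers were 633 to 722 and 1733 to 2060 FPKM. T and NK cell markers were 29.4 to 31.7 and 148 to 169 FPKM. Mast cell and basophil markers were 32 to 39.5 and 56.7 to 73.5 FPKM. Endothelial markers were lower (89.6 to 95.8 and 71.1 to 74.6 FPKM). B cell markers were 22.3 to 26.6 and 19.9 to 22.6 FPKM. The part of these markers in the members' rise was not tested.

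Members with and without the ISRE core are set side by side as a description, with no test. Over this course the median difference was 1.31 for the 20 members with the core and 1.24 for the 14 without. For E16.5 against E12.5 FL it was 0.75 and 0.76, and for 3w against 1w BM 0.44 and 0.54, where 7 of 20 and 7 of 14 rose. For Perinatal BM against E16.5 FL the medians were 0.25 and 0.36, and 3 of 20 and 7 of 14 rose. Among the other interferon-induced genes 45 of 49 rose between E12.5 FL and 8w BM and 1 fell, with a median of 1.09. Among them were Tgtp2, an immunity-related GTPase outside the set (0.0967 to 20.4 FPKM), Sp100 (2.59 to 31.1 FPKM) and Lgals3bp (9.68 to 102 FPKM). Of 15 genes that induce interferon, 9 rose and 0 fell in limma (9 and 1 at an unadjusted p under 0.05), with Unc93b1, which carries nucleic acid receptors to endosomes, going from 38.9 to 71.1 FPKM. Of 12 repressors of the response 4 rose and 3 fell, so that this list did not move one way. Socs3, a feedback inhibitor of cytokine receptors, rose from 2.34 to 41.6 FPKM.

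The families took different courses. Relative to E12.5 FL, the mean log2 level of the OAS family was 1.14 ± 0.24 (SD, n = 3) in E16.5 FL, 1.36 ± 0.09 in 1w BM, 2.21 ± 0.27 in 3w BM and 2.19 ± 0.08 in 8w BM. The immunity-related GTPases were at -0.10 ± 0.14 in E16.5 FL, 0.42 ± 0.06 in 1w BM, 0.80 ± 0.22 in 3w BM, 1.11 ± 0.11 in 6w BM and 1.62 ± 0.09 in 8w BM, and the 3 libraries of 8w BM (1.52 to 1.69) lay above every 6w library (1.02 to 1.23). Guanylate-binding proteins climbed in smaller steps, from 0.85 ± 0.15 in E16.5 FL through 1.22 ± 0.05 in 1w BM and 1.47 ± 0.01 in 3w BM to 1.93 ± 0.05 in 8w BM. The IFITM family was at 0.95 ± 0.19 in E16.5 FL, 1.29 ± 0.43 in Perinatal BM, 0.94 ± 0.05 in 1w BM and 0.93 ± 0.16 in 3w BM. It was at 1.37 ± 0.09 in 4w BM, 1.12 ± 0.22 in 6w BM and 1.35 ± 0.14 in 8w BM. These family means are descriptions, and the differences between families were not tested.

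**Figure D5:**
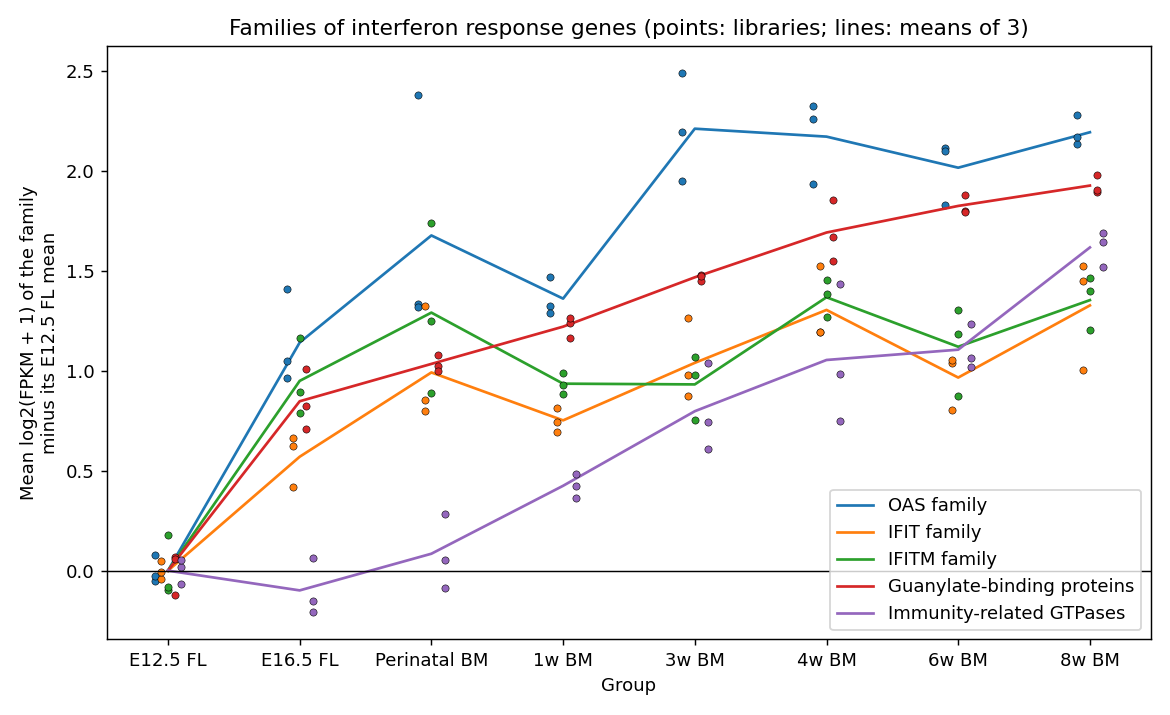
Mean log2(FPKM + 1) of 5 gene families (OAS, IFIT, IFITM, guanylate-binding proteins and immunity-related GTPases), minus their mean in E12.5 FL (vertical axis), in 8 FL and BM groups (horizontal axis). Points are libraries and lines join group means. The OAS family reaches 2.21 at 3 weeks and stays near it, and the immunity-related GTPases reach 1.62 at 8 weeks.

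Iigp1, an immunity-related GTPase that lyses parasite vacuoles, had a higher mean in each later group of those given here, from E16.5 FL on. Its libraries held 0.0584, 0.0241 and 0.0812 FPKM in E12.5 FL, 0.197, 0.453 and 0.463 in E16.5 FL, 1.64, 1 and 1.19 in 1w BM, 2.19, 1.67 and 2.62 in 3w BM and 5.33, 4.67 and 4.8 in 8w BM. Igtp held 3.7, 4.77 and 3.9 FPKM in E12.5 FL, 8.47, 7.22 and 10.6 in 3w BM and 12.8, 15.6 and 13.5 in 8w BM. In both genes the 8-week libraries lay above all of E12.5 FL, 1w and 3w BM. Ifitm3, the most widely studied barrier to influenza virus entry, rose early. It held 99.1, 112 and 91.6 FPKM in E12.5 FL, 237, 181 and 197 in E16.5 FL, 174, 190 and 176 in 1w BM, 287, 235 and 302 in 3w BM and 319, 342 and 279 in 8w BM. Its E16.5 libraries overlapped those of 1w BM and 3w BM.

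Most members ran in parallel over the 8 FL and BM groups. The correlation of a member's group means with the mean of the other members had a median of 0.94, and it was at least 0.8 for 37 of the 44. The share of other genes that reached 0.8 is not given here. The members' mean standardised level was -1.73 in E12.5 FL and -0.51 to 0.88 in the other groups. A gene that is low in E12.5 FL therefore tends to score high, in the set or outside it. Oasl2 was most like the rest (0.995). The least alike were Samhd1 (-0.78), Trim25 (0.43), Irgm2 (0.47), Ifitm1 (0.56), Irf1 (0.68), Ifi204 (0.72) and Stat2 (0.79). Among 10881 genes outside the set, those with the course most like the members' mean were Ppt2 (0.990), Trim30a (0.985), Slfn8 (0.984), Serinc3 (0.984), Ifi27l2a (0.983) and Hmgn3 (0.983). Trim30a, Slfn8 and Ifi27l2a are on the list of other interferon-induced genes. Ppt2, a lysosomal thioesterase, rose from 12.54 FPKM in E12.5 FL to 29.5 in 8w BM, and Serinc3, a membrane protein that restricts retroviruses, rose from 305 to 676. The points of these correlations are 8 group means that share their libraries, and they are descriptions only.

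Compared with E12.5 PL, 9 members were higher in E12.5 FL and 25 were lower, against 33.2% and 41% of all genes. The median member difference was -0.64, against -0.06 over all genes. The members lower in FL were led by Rsad2, which had 66.8, 54.1 and 40.1 FPKM in PL and 0.889, 1.05 and 0.835 in FL (-4.80 ± 0.24, limma adjusted p = 1.05e-14). Isg15 had 37.6, 37.1 and 49.3 FPKM against 3.44, 4.4 and 2.59 (-3.25 ± 0.25, adjusted p = 3.37e-11), and Irf7 had 16.7, 18.5 and 17.8 against 2.34, 3.19 and 2.2 (-2.39 ± 0.25, adjusted p = 8.81e-09). All PL libraries lay far above all FL libraries for these genes. Isg20 had 11.5, 13.2 and 17 FPKM against 2.78, 3.06 and 2.74 (-1.93 ± 0.17, adjusted p = 3.22e-10), and Usp18 had 7.66, 9.6 and 10.6 against 2.16, 1.46 and 1.65 (-1.90 ± 0.25, adjusted p = 4.68e-07).

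The members higher in FL were led by Ifi203, a p200 family protein gene, with 1.3, 1.24 and 1.53 FPKM in PL and 29.6, 28.7 and 28.0 in FL (3.66 ± 0.12, limma adjusted p = 7.04e-18). Samhd1 had 21.4, 20.3 and 19.9 FPKM against 49.4, 51.9 and 54.4 (1.30 ± 0.08, adjusted p = 3.92e-13), and Ifitm1 had 94.1, 51.1 and 70 against 127, 150 and 128 (0.94 ± 0.21, adjusted p = 0.000362). Both were higher in every FL library. Gbp7 had 3.13, 3.31 and 2.46 FPKM against 7.53, 6.31 and 6.02 (0.94 ± 0.11, adjusted p = 3.12e-08), and Irgm1 had 6.6, 5.48 and 6.4 against 11.3, 11.6 and 10.1 (0.74 ± 0.13, adjusted p = 1.32e-05). Neither overlapped. In this comparison 8 of 8 endothelial markers and 8 of 8 trophoblast markers were lower in FL, summed endothelial markers being 882 to 1189 FPKM in PL and 89.6 to 95.8 in FL. Their part in the members' differences was not tested. Ptpn6, a phosphatase of blood cells, was higher in FL (22 to 114 FPKM), and Socs3 was lower (68.6 to 2.34 FPKM).

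Several comparisons share libraries: E12.5 FL served as the base for both E16.5 FL and 8w BM and was set against PL, and each BM step shares a group with the next. The members' differences in those comparisons are therefore given side by side and not as separate support. Of the members, Adar and Chrnb2 overlap by 1365 bases on opposite strands, Igtp and Irgm2 by 162 on the same strand, Irf9 and Rnf31 by 123 and Ifi203 and Mndal by 37. Neither the strand used in counting nor the treatment of reads in overlapping exons is given in the sources used here, so reads from the shared bases cannot be assigned. Genes of the IFIT, IFITM, OAS, Mx, Gbp and Irgm families have close relatives, and how reads that fit more than 1 of them were counted is not given either.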

How the data were processed

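RNA of purified cells labelled HSPC was measured in 27 libraries, 3 in each of 9 groups taken from the labels. The authors deposited FPKM per gene symbol, and every column was used. Per the submitters' processing notes, Trim Galore, FastQC, STAR 2.7, HTSeq 0.6.1p1 and the GRCm38 build were used. Neither the program behind the FPKM nor the annotation is named there. Because the authors' FPKM are not counts, no count model was used.

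All tests were run on log2(FPKM + 1). A gene entered if 3 or more libraries had an FPKM of 1 or higher, which left 13350 genes. R 4.3.3 with limma 3.58.1 was used (functions lmFit and eBayes, trend on) in a single fit of all 27 libraries that holds 1 mean per group and leaves 18 residual degrees of freedom. Adjusted p is the Benjamini-Hochberg value over all 13350 genes of a comparison, and the threshold was 0.05. Shares of all genes were computed at this adjusted threshold only, so counts at an unadjusted p have no such share beside them. No replicate block was used. The text gives library values for up to 5 called members in each direction and comparison with the largest log2 difference and a mean of at least 5 FPKM in the higher group; genes of the other lists are named for called changes with the smallest adjusted p, and other genes were picked with their values known. The members, lists and markers were chosen with earlier results of these data known. RefSeq promoters were searched for the 2 motifs on both strands. The script was tested on simulated data for 3 comparisons over 13350 genes. Changed genes were drawn from those with a mean of at least 5 FPKM over the groups, so recovery at lower levels was not tested. A log2 change of 1 was recovered for 98% of changed genes in E16.5 against E12.5 FL, and a change of 0.5 for 55%. The values were 93% and 59% for 3w against 1w BM, and 96% and 65% for 6w against 4w BM. Unchanged genes called numbered 5, 5 and 12 in this order. Alternatives were another pseudocount, other filters, a median-of-ratios scaling, a fit without E12.5 PL, a replicate block, a fit of the 6 libraries compared and leaving out each library. Rnf213 was not analysed here, and 1 gene of the pathway lists is not reported here. Figures were drawn with Python 3.11.15, numpy 2.4.6 and matplotlib 3.10.9.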

Additional observations from a re-analysis of the deposited data

How the results depend on the processing

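Of 124 counts of members called higher or lower under the alternative settings, 107 stayed within 1.5 times the value reported. Of 536 results for the named members under all settings, 479 kept their direction and their side of the threshold, 57 lost their call and 0 reversed. With no filter, 1 member rose between 3 and 4 weeks. With a filter at 5 FPKM, 2 fell between 1 and 3 weeks. With median-of-ratios scaling, 1 fell between 4 and 6 weeks. Without the E12.5 PL libraries, 2 rose and 5 fell between Perinatal and 1w BM, 2 fell between 1 and 3 weeks, and 1 fell between 4 and 6 weeks. In a fit of only the 6 libraries compared, which has fewer libraries, 1 member rose and 0 fell from E16.5 FL to Perinatal BM. From Perinatal to 1w BM 0 rose and 0 fell, and 2 fell between 1 and 3 weeks. In this fit 0 rose between 3 and 4 weeks and 0 between 4 and 6 weeks. Between 6 and 8 weeks 0 rose and 0 fell. It kept all 31 calls of E16.5 against E12.5 FL and gained Trim25, Ifit3, Iigp1 and Rtp4. It kept all 34 of E12.5 FL against PL and gained Irgm2 and Mx1. Between 1 and 3 weeks it kept 13 of 19 calls and gained Trim25, Ifit1, Ifitm1, Oas1a and Ifi27. The cause of the changes under these settings was not tested.

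Libraries with the same replicate number did not deviate together (27 correlations from -0.21 to 0.13, and in 0 comparisons all over 0.1). With the replicate number as a block, 2 members fell between 1 and 3 weeks, and every other count of calls stayed within 1.5 times. Rsad2 between Perinatal and 1w BM had a limma adjusted p of 0.06 with the block.

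Leaving out 1 library at a time gave these ranges of members called. E12.5 FL against PL had 8 to 9 higher and 25 to 26 lower, E16.5 against E12.5 FL 28 to 31 and 0 to 1, and 8w BM against E12.5 FL 41 to 42 higher and 1 lower. Perinatal BM against E16.5 FL had 4 to 17 higher and 0 to 1 lower, 1w against Perinatal BM 0 to 1 and 1 to 7, and 3w against 1w BM 8 to 16 and 0 to 1. Between 3 and 4 weeks 1 to 3 rose and 0 fell, between 4 and 6 weeks 0 to 1 rose and 0 to 1 fell, and between 6 and 8 weeks 0 to 4 rose and 1 fell. Depth in counts is unknown, so members near 0 FPKM in E12.5 FL have no stated floor.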
